A study of Mus musculus with 6 samples.

Results

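Genes of plasminogen activation and of the start and restraint of coagulation were followed in LPS-stimulated RAW 264.7 cells with and without 15-HETE. The 9 genes were chosen by their known roles, with earlier results of these data known, and comprised the proteases Plau and Plat, the receptor Plaur, the inhibitors Serpinb2 and Serpine2, the initiator F3, and the anticoagulant genes Procr, Thbd and Tfpi. Of these 9 genes 7 were measured, each by 1 probe that the platform annotation assigns to that gene alone, out of 13840 genes measured in all. Plaur and Serpine2 matched no probe by symbol or gene identifier and were not analysed here.

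RAW 264.7 is a mouse macrophage-like cell line. All 6 samples were stimulated with 1 μg/mL LPS, a bacterial endotoxin that activates macrophages, and harvested at 24 h. In 3 of them (15-HETE + LPS) the cells received 40 μM 15(S)-HETE, a hydroxylated product of arachidonic acid, just before LPS, and the other 3 (LPS) did not. Each sample is a biological replicate that pooled 6 wells, no untreated sample is part of the comparison, and the labels and the study's methods differ on the serum level of the medium. Which arrays were hybridised side by side is not stated in the labels, and an effect of array set cannot be told apart from that of 15-HETE.

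Plasmin is the protease that dissolves fibrin and cuts matrix proteins, and it is made from plasminogen by urokinase (Plau) or tissue-type plasminogen activator (Plat). Macrophages hold urokinase at the surface on its receptor (Plaur), and the serpins PAI-2 (Serpinb2) and protease nexin-1 (Serpine2) inhibit the activators. Tissue factor (F3) starts coagulation on activated monocytes and macrophages, the tissue factor pathway inhibitor (Tfpi) blocks that first step, and thrombomodulin (Thbd) with the endothelial protein C receptor (Procr) turns thrombin towards activation of the anticoagulant protein C.

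Promoters of the members were read from a set of promoters at RefSeq starts (GRCm38.p6) that held 6 of the 9 genes. Plau, Plat and Thbd were not in this set, though RefSeq lists these genes. The 250 bases before the most upstream listed start are given for Serpinb2 and Procr, 2 genes whose intensities did not overlap between the groups, and for F3, whose intensities did. These starts lie 10531 bases (Serpinb2) and 92 bases (Procr) inside the outermost upstream end of the RefSeq gene, and 0 bases for F3. Capitals mark the AP-1 motif TGANTCA, which is searched here because LPS is known to activate AP-1 factors.
Serpinb2 (chr1:107511173-107511422, plus strand): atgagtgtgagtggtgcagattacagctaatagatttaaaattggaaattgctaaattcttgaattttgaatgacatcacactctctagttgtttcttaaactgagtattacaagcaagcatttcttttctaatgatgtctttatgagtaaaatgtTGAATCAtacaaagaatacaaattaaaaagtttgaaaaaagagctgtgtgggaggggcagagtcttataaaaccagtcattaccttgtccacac
Procr (chr2:155750967-155751216, plus strand): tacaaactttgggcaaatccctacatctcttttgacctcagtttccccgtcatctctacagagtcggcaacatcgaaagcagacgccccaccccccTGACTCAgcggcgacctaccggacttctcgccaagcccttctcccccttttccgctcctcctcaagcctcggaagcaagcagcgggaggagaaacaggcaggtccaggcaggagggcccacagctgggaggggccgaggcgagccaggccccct
F3 (chr3:121723287-121723536, plus strand): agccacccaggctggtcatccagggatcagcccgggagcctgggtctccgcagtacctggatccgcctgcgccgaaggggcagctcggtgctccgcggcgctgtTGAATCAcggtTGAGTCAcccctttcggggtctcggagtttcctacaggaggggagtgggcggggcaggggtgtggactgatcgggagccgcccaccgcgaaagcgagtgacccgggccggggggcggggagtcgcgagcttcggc
The AP-1 letters lay at -94 to -88 before the start in Serpinb2, at -154 to -148 in Procr, and at both -146 to -140 and -135 to -129 in F3. They were in 4 of the 6 promoters, the fourth being that of Plaur, and in 6.75% of 32851 windows of the same length over all listed starts. The promoters of Serpine2 and Tfpi did not hold these letters. The start of Plaur lies 1546 bases inside the outermost upstream end of its RefSeq gene, against 16 for Tfpi and 0 for Serpine2. Each member was counted at its most upstream listed start only, whereas the windows cover all listed starts. The TATA box letters TATAAA, on either strand, were in 2 of the 6 promoters (Serpinb2 at -29 to -24, and Tfpi) and in 12.4% of windows. The EGR motif GCGNGGGCG was in 2 of 6 (Plaur and Serpine2) and in 4.7% of windows. The cyclic AMP response element TGACGTCA was found in 0 of 6 on either strand, and in 1.55% of windows. The motifs were chosen for this description, and a match is no evidence of binding.

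Values are linear intensities, quantile normalised by the authors, and the median of every array was 837. Differences are log2 fold changes of 15-HETE + LPS minus LPS from limma with their standard error (SE), called at an adjusted p under 0.05 over 33012 probes. On the whole array 168 probes were higher (0.509%) and 146 lower, 0.951% in all. When the prior variance of limma followed intensity (the intensity trend), 8.84% were called, 3.87% higher and 4.96% lower. The groups did not overlap for 30.0% of probes, 13.7% higher and 16.3% lower after 15-HETE. Of 12 macrophage markers 8 were measured, and all 8 were above the array median.

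Of the 7 measured genes, Plau, Serpinb2, Procr and Thbd were higher in every sample treated with 15-HETE than in every LPS sample, whereas Plat, F3 and Tfpi overlapped between the groups. That is 4 of 7, where 13.7% of all probes were higher without overlap. At their brightest probe 35.3% of all genes did not overlap, in either direction. The same held for 5 of 8 macrophage markers and 10 of 11 LPS-induced transcripts, described below. At an adjusted p under 0.05 1 of 7 was higher, Serpinb2, and 0 were lower, against 0.509% of probes called higher and 0.442% called lower. At their brightest probe 105 of 13840 genes were called higher and 51 lower. An unadjusted p under 0.05 was found for 4 of 7, for 19.6% of all probes and for 21.4% of all genes. With the intensity trend 4 of 7 were higher and 0 lower, against 3.87% of probes and 810 of 13840 genes higher. The median log2 fold change over the 7 genes was 0.79, and over the brightest probe of all 13840 genes it was 0.02. The 4 genes that did not overlap had a mean log2 intensity over all samples above the array median, Plau through its treated samples alone, and the 3 that did overlap were below it. For a single gene the exact permutation test of 3 samples against 3 cannot go below a two-sided p of 0.1, the value of all 4 genes without overlap.

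**Figure D1:**
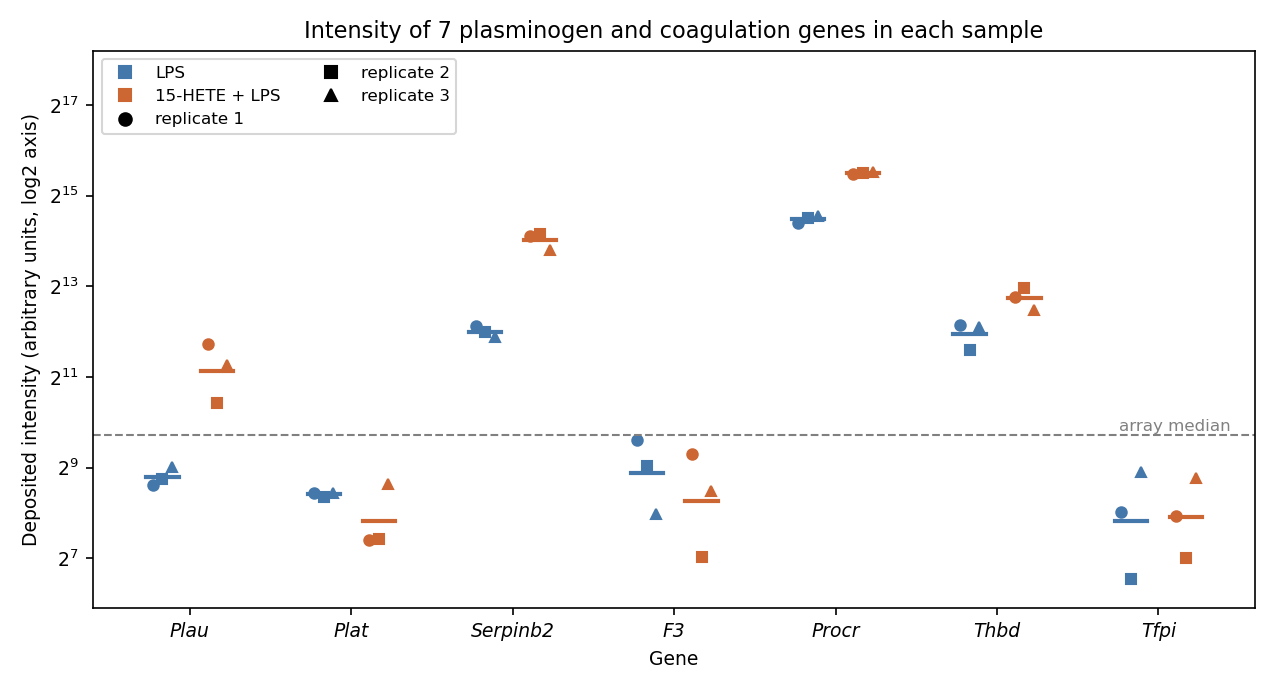
Deposited intensity (log2 axis) of the 7 measured genes in each of the 6 samples, with LPS in blue, 15-HETE + LPS in orange, marker shapes for replicates and bars for the group means of the log2 values. The groups are apart for Plau, Serpinb2, Procr and Thbd and overlap for Plat, F3 and Tfpi, which lie below the dashed array median of 837 in every sample.

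Of the plasminogen activators, Plau had a log2 fold change of 2.34 after 15-HETE that narrowly missed the test, and Plat did not differ beyond the spread of its samples. The intensity of Plau, the urokinase gene, was 391, 432 and 518 in the LPS samples. It was 3405, 1375 and 2440 in the samples treated with 15-HETE. All LPS samples lay under the array median and all treated samples above it, and the treated samples spread more widely than the LPS samples, with an SD of 0.66 against 0.20 on the log2 scale. This log2 fold change of 2.34 (SE 0.36, limma adjusted p = 0.0511) corresponds to 5.07-fold, with a 95% interval of 1.47 to 3.21 on the log2 scale. The limma adjusted p was 0.00841 with the intensity trend, 0.0432 with 50 added to every intensity and 0.0483 after cyclic loess normalisation. It was 0.0598 with a robust prior, and by the methods' t-test, a plain test of each probe alone, it was 0.233 over all probes and 0.0886 over the probes that differed by 1.8-fold in at least 2 of 3 treated samples. With 1 sample left out the log2 fold change ran from 2.04 to 2.70, and under the intensity trend Plau was called in 6 of 6 such fits. In bulk RNA, a change in the share of cells that express a gene and a change in the RNA per cell cannot be told apart.

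Plat, the tissue-type activator gene, had 350, 325 and 345 in the LPS samples and 169, 171 and 399 after 15-HETE. Treated replicates 1 and 2 were below all LPS samples and treated replicate 3 was above them. The difference was -0.59 on the log2 scale (SE 0.37, limma adjusted p = 0.426), with a 95% interval of -1.48 to 0.30. Without treated replicate 3 it was -0.998, with a limma adjusted p of 0.119. Every value of Plat was dimmer than the array median, and 11.5% of probes had a lower mean log2 intensity.

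Serpinb2, the gene of PAI-2, an inhibitor of urokinase, was the member that passed the test. Its intensity was 4430, 4095 and 3766 in the LPS samples and 17562, 18136 and 14216 after 15-HETE, so that the lowest treated sample was above the highest LPS sample by more than the range of either group. It rose 4.05-fold, or 2.02 on the log2 scale (SE 0.19, limma adjusted p = 0.0327) with a 95% interval of 1.56 to 2.48. The limma adjusted p was 0.000312 with the intensity trend and 0.0376 with a robust prior. By the methods' t-test over all probes, which called 0 probes of the array, it was 0.0868. The log2 fold change lay between 1.95 and 2.13 when any 1 of the 6 samples was left out, and between 2.00 and 2.05 in the fits that kept all samples. Without any 1 sample limma called 0 probes of the whole array, and with the intensity trend Serpinb2 was called in 6 of 6 such fits. The study listed Serpinb2 and Procr among its changed genes from these same samples, so their direction here is not independent evidence. The same holds for Mmp9, Il1a and Pmp22, which are named below. For Mmp9 the study also reported lower mRNA by quantitative RT-PCR.

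**Figure D2:**
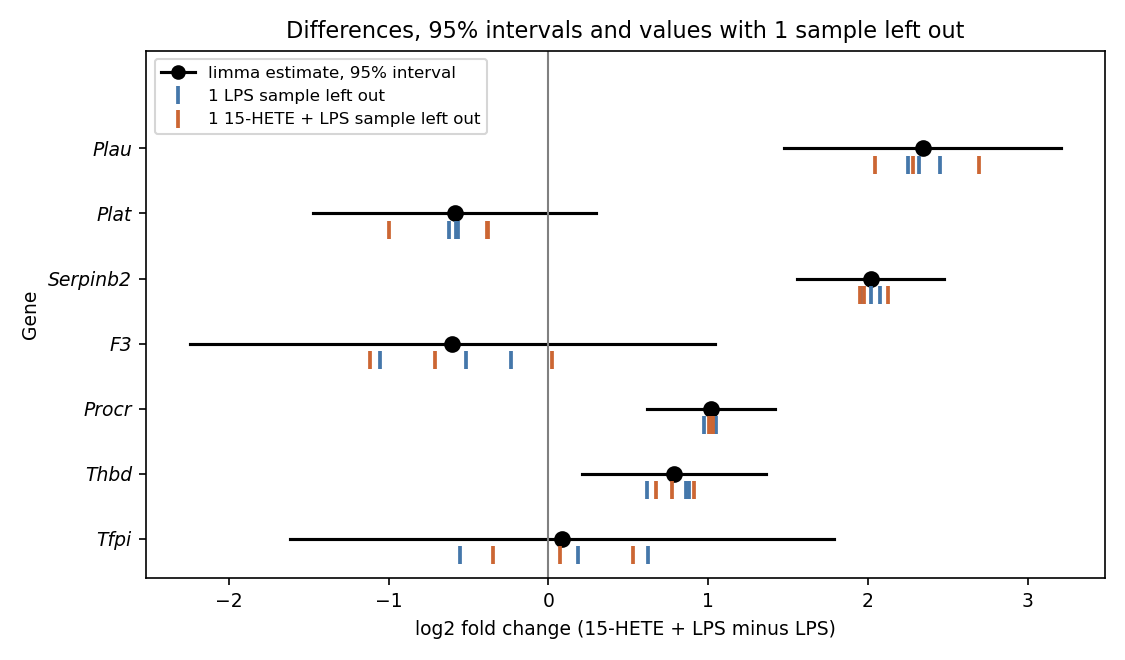
Log2 fold change of each gene (15-HETE + LPS minus LPS, horizontal axis) with its 95% interval from limma (black), and the values with 1 sample left out (blue for an LPS sample, orange for a 15-HETE + LPS sample). The intervals of Plau, Serpinb2, Procr and Thbd lie above 0 and those of Plat, F3 and Tfpi include 0, and with 1 sample left out Serpinb2 stays between 1.95 and 2.13 while Tfpi runs from -0.56 to 0.62.

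F3, the gene of tissue factor, was dim and scattered in both groups. Its intensity was 781, 528 and 250 in the LPS samples and 630, 130 and 360 after 15-HETE. The SD on the log2 scale was 0.83 in LPS samples and 1.15 in treated samples, each larger than the difference between the groups. On the log2 scale the difference was -0.60 (SE 0.68, limma adjusted p = 0.664), with a 95% interval of -2.24 to 1.04. A 2-fold rise and a fall of more than 2-fold both lie within this interval. The value without treated replicate 2 was 0.022.

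Among the anticoagulant genes, the protein C pathway genes Procr and Thbd were higher in all treated samples, and Tfpi overlapped. Procr, the gene of the endothelial protein C receptor, which presents protein C for activation, had 21455, 23421 and 23921 in the LPS samples and 45825, 46120 and 47321 after 15-HETE. The treated samples lay within an SD of 0.02 on the log2 scale and the LPS samples within 0.08. Procr differed by 1.02 on the log2 scale (SE 0.16, limma adjusted p = 0.0545), or 2.03-fold, with a 95% interval of 0.62 to 1.42. Procr thus missed the threshold in the test with 1 prior variance for all probes and passed it with the intensity trend (adjusted p = 0.00108). It also passed with 50 added to every intensity (limma adjusted p = 0.0447), but not after cyclic loess (0.0539), with a robust prior (0.0638) or by the methods' t-test over all probes (0.115). The log2 fold change of Procr lay between 0.97 and 1.05 with any 1 sample left out, and with the intensity trend it was called in 6 of 6 such fits.

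Thbd, the gene of thrombomodulin, the thrombin receptor that starts protein C activation, had 4512, 3110 and 4395 in the LPS samples and 6969, 7949 and 5719 after 15-HETE. The lowest treated sample was above the highest LPS sample, and LPS replicate 2 stood lower than the other two. The difference on the log2 scale was 0.79 (SE 0.24, limma adjusted p = 0.152), or 1.73-fold, with a 95% interval of 0.21 to 1.37. It did not pass the test, and its adjusted p under the intensity trend was 0.0433. That call was kept in 1 of the 6 fits with the intensity trend that left out 1 sample, the one without LPS replicate 1, and the adjusted p in these fits ran from 0.0130 to 0.156.

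Tfpi, the inhibitor of the tissue factor and factor VII complex, had 259, 92.9 and 476 in the LPS samples and 243, 129 and 436 after 15-HETE. The samples of each group spread widely, and both the lowest and the highest value belonged to LPS samples. The groups differed by 0.08 log2 units (SE 0.70, limma adjusted p = 0.960), with a 95% interval of -1.62 to 1.79. Its sign turned to -0.56 without LPS replicate 2 and to -0.35 without treated replicate 3. Of all probes, 4.23% had a lower mean log2 intensity.

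**Figure D3:**
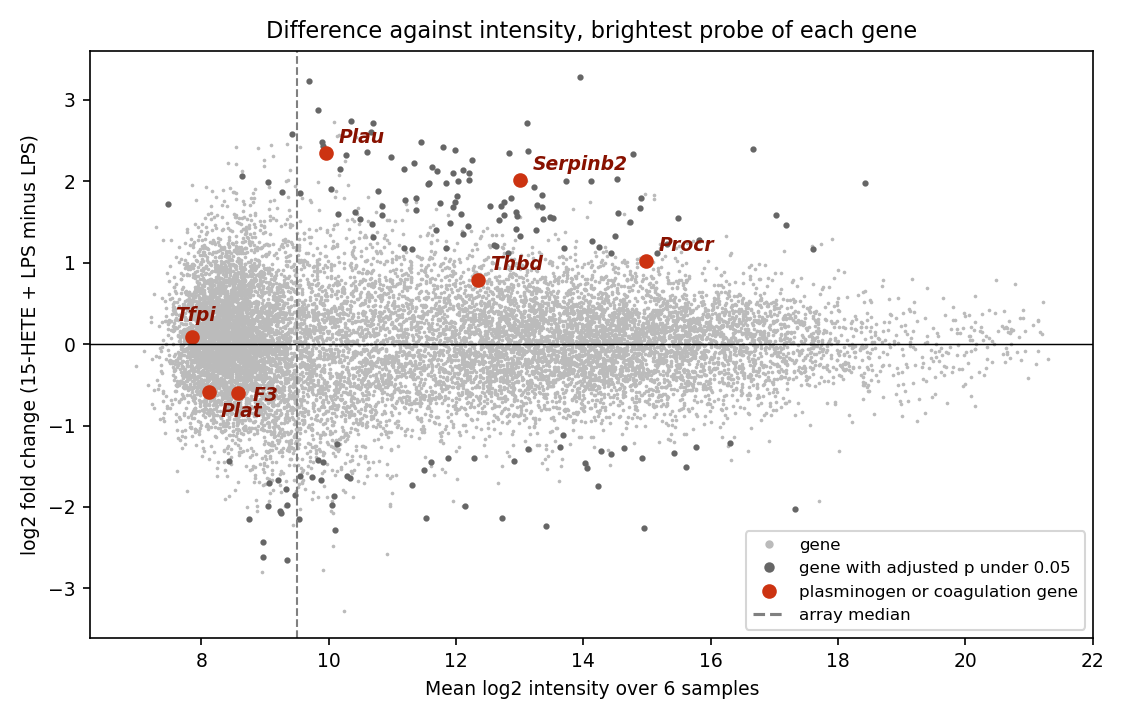
Log2 fold change (15-HETE + LPS minus LPS) against the mean log2 intensity over the 6 samples, for the brightest probe of 13840 genes (light grey), those with an adjusted p under 0.05 (dark grey) and the 7 plasminogen and coagulation genes (red). Plau, Serpinb2, Procr and Thbd lie to the right of the dashed array median with positive values, and Plat, F3 and Tfpi lie to the left of it.

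The genes whose log2 values over the 6 samples were most like those of Serpinb2 and Plau were sought among the 8599 other genes brighter than the array median. Those most like Serpinb2 were Pmp22 (Pearson's r = 0.9985, n = 6 samples), Tmem18 (0.998) and Cwc22 (0.998). Cwc22 had a mean intensity of 509 in LPS samples, under the array median, and 3398 in treated samples. It was thus among the brighter genes through its treated samples alone. Those most like Plau were R3hdm4 (0.9964), Ifit2 (0.9945) and Phf11d (0.9935). These correlations are descriptions across 6 samples of 2 groups that share the arrays, so they mostly follow the difference between the groups. The size of that difference varied among the genes named, with log2 fold changes of 0.90 for Pmp22, 0.79 for Tmem18 and 2.74 for Cwc22, and of 0.27 for R3hdm4, 2.18 for Ifit2 and 1.096 for Phf11d.

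The rest of the plasminogen and coagulation systems was read from 6 lists of 83 other genes, of which 66 were measured. At an adjusted p under 0.05 0 were higher and 2 lower, Fpr2 and Mmp9, against 1.13% of all genes at their brightest probe, and 16 had an unadjusted p under 0.05, as did 21.4% of all genes. The median log2 fold change was 0.00, with 33 genes above 0 and 33 below. The groups did not overlap for 23 of the 66 (34.8%), against 35.3% of all genes. Under the intensity trend 2 passed as higher and 5 as lower, against 11.2% of all genes in either direction.

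Among 15 measured genes of plasminogen receptors and partners of the urokinase receptor, Fpr2, a formyl peptide receptor that also responds to the cleaved urokinase receptor, fell from 6333 ± 1623 (SD, n = 3) to 1411 ± 75.1 (SD, n = 3). Fpr2 thus changed by -2.13 on the log2 scale (SE 0.25, limma adjusted p = 0.0368). Met, the receptor of hepatocyte growth factor, had 169 ± 18.2 and 674 ± 303 (SD, n = 3 each), a log2 fold change of 1.89 at a probe below the array median (limma adjusted p = 0.0729, and 0.0308 with the intensity trend). The annexin Anxa2, which binds plasminogen at the surface, had -0.24 (adjusted p = 0.544). The integrin subunits Itgam and Itgb2, which together form Mac-1, a partner of the urokinase receptor, had 0.02 and 0.13. Lrp1 and Igf2r, endocytic receptors that bind the urokinase receptor or its complexes, had -1.01 (adjusted p = 0.111, and 0.0119 with the intensity trend) and -0.71 (adjusted p = 0.157, and 0.0246 with the intensity trend). H2bc21 (0.75, adjusted p = 0.221), Itga3 (0.57, adjusted p = 0.206) and S100a10 (0.52, adjusted p = 0.409) were higher without overlap. In either direction the groups did not overlap for 8 of the 15 genes (53.3%), against 35.3% of all genes. Of the 15 genes 9 had a positive log2 fold change and 6 a negative one, and the median was 0.03. Anxa2, Itgam, Itgb2, Lrp1, Igf2r, H2bc21, Itga3 and S100a10 were singled out after their values were seen.

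Among 8 measured substrates of plasmin or urokinase, Mmp9, a gelatinase whose proenzyme is activated downstream of plasmin, fell from 71102 ± 18706 to 14523 ± 1272 (SD, n = 3 each). Mmp9 thus changed by -2.26 on the log2 scale (SE 0.24, limma adjusted p = 0.0339). Mst1, the precursor of macrophage-stimulating protein, had 1.01 (adjusted p = 0.144). Among 8 measured genes of plasminogen and its inhibitors, plasminogen itself, Plg, had 1446 ± 148 and 674 ± 446 (SD, n = 3 each), which is -1.29 on the log2 scale (limma adjusted p = 0.188). The broad protease inhibitor A2m had 0.58 at a probe below the array median (adjusted p = 0.220, and 0.394 with the intensity trend). The clade B serpins Serpinb6a and Serpinb9, relatives of Serpinb2 that were also singled out after their values were seen, had -0.16 (adjusted p = 0.683) and 0.47 (adjusted p = 0.297).

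Among 20 measured coagulation factors and genes of their synthesis limma called 0, and 2 had an unadjusted p under 0.05, against the 21.4% of all genes. Mcfd2, which helps factors V and VIII leave the endoplasmic reticulum, differed by 0.75 on the log2 scale (adjusted p = 0.173, and 0.0335 with the intensity trend). The fibrinogen chain gene Fga had -1.19 (adjusted p = 0.247) at a probe below the array median. Of 10 measured anticoagulant genes limma called 0, and 3 had an unadjusted p under 0.05, against the same 21.4%. Among them antithrombin, Serpinc1, had 1.21 (adjusted p = 0.148). Hs3st1, an enzyme of anticoagulant heparan sulfate, had -0.54 at a probe below the array median (adjusted p = 0.160, and 0.439 with the intensity trend). Of 5 measured thrombin and platelet receptor genes limma called 0, and 1 had an unadjusted p under 0.05, against the same 21.4%. These included Gp9, a subunit of the receptor of von Willebrand factor, with -0.89 (adjusted p = 0.123, and 0.0144 with the intensity trend). The protease-activated receptor gene F2rl2 had 0.76 at a probe below the array median (adjusted p = 0.290, and 0.333 with the intensity trend).

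**Figure D4:**
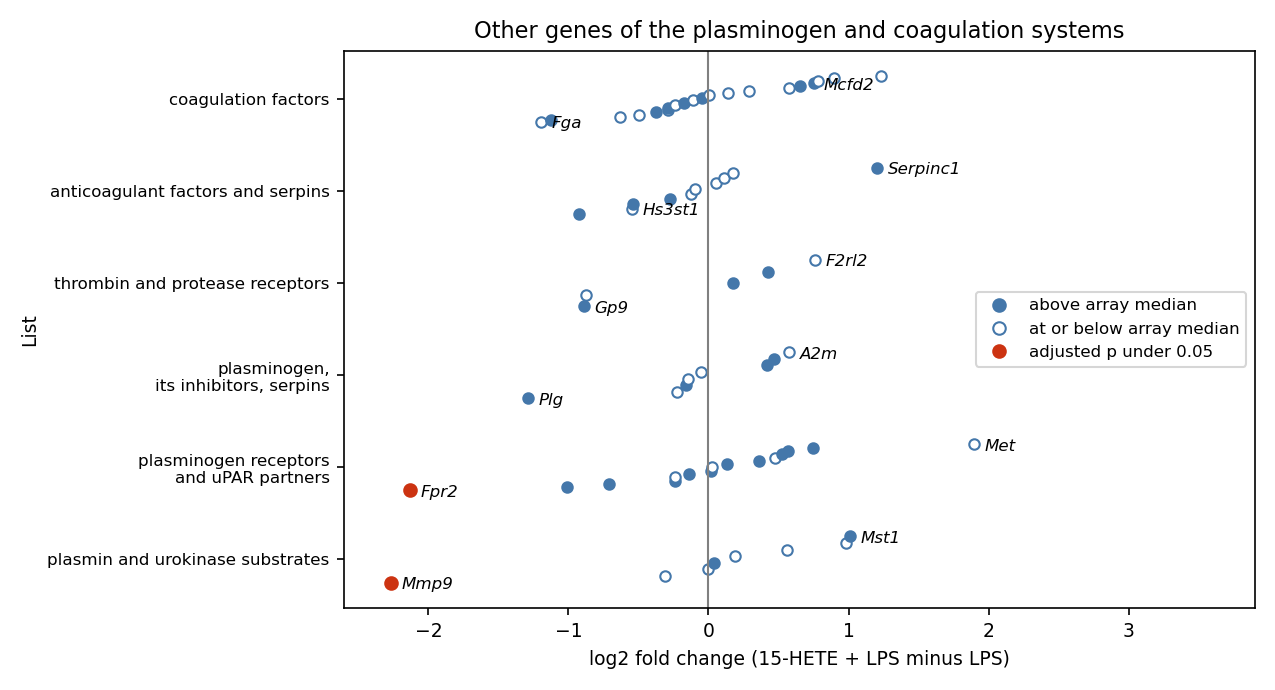
Log2 fold change (15-HETE + LPS minus LPS) of the 66 measured genes in 6 lists of the plasminogen and coagulation systems, as filled points above and open points at or below the array median, with genes at an adjusted p under 0.05 in red and the 2 genes of lowest p named in each list. Fpr2 and Mmp9 are the red points, at -2.13 and -2.26, and the other genes scatter around 0.

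Markers of cell types that make these proteins in tissues were read beside the results. Of 12 endothelial markers 12 were measured, 10 of them below the array median, the exceptions being Cdh5 and Vwf. Their summed intensity was 6018 to 6724 in LPS samples and 4089 to 6815 in treated samples, and 0 were called by limma, with or without the intensity trend (1 had an unadjusted p under 0.05). Robo4 (-0.49) and Egfl7 (-0.77, adjusted p = 0.344) had the lowest p. Cdh5 had a mean of 1097 in LPS samples and 1118 in treated samples, and Vwf had 1819 and 1015 (-1.12, adjusted p = 0.360) without overlap, both singled out after their values were seen. The summed intensity of the 8 macrophage markers was 2559350 to 3319130 in LPS samples and 3678607 to 3812755 in treated samples, without overlap. Most of that sum was Lyz2, with a mean of 2119350 in LPS samples and 2573370 in treated samples (0.30, adjusted p = 0.464). Lyz2 was singled out after its values were seen. Of the 8 markers 7 had a positive log2 fold change and 1 a negative one, with a median of 0.22. Laptm5 (-0.90, adjusted p = 0.0813) and Fcgr1 (0.51, adjusted p = 0.194) had the lowest p among them, and 0 were called by limma (2 had an unadjusted p under 0.05), while Laptm5 passed under the intensity trend (adjusted p = 0.00595). The 8 fibroblast markers summed to 24954 to 31037 in LPS samples and to 16718 to 17843 in treated samples. Limma called 0 of them, 2 had a positive and 6 a negative log2 fold change, and the median was -0.13. Dcn made up a large part of these sums, with a mean of 14584 in LPS samples and 5822 in treated samples. It had -1.30 (adjusted p = 0.0587, and 0.00298 with the intensity trend), while Thy1 had 0.95 (adjusted p = 0.144) at a probe below the array median. The part of these shifts in the results was not tested.

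The 3 measured platelet markers of 7 summed to 48952 to 54281 in LPS samples and 48891 to 57538 in treated samples, with Pf4 at 1.74 (adjusted p = 0.130, and 0.0229 with the intensity trend) and Gp9 as given above. The 7 measured hepatocyte markers of 8 summed to 3409 to 3715 and 2633 to 3854, and 6 of them were below the array median, with Tat (0.99) and Ahsg (-0.70) having the lowest p. Of 13 transcripts that LPS induces in macrophages 11 were measured and all 11 were above the array median. Of these 1 was higher, Il1a (log2 fold change 2.34, limma adjusted p = 0.0327), and 0 were lower, while under the intensity trend 2 passed as higher and 5 as lower, against 1.13% and 11.2% of all genes called in either direction by these fits. Il6 had -1.69 (adjusted p = 0.0570). Of these 11 transcripts 7 had a negative log2 fold change, as had 48.4% of all genes.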

How the data were processed

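Total RNA was labelled and hybridised to mouse genome survey arrays with 1 chemiluminescent signal per probe. The deposited values are linear intensities that the authors read with the expression array software of the analyzer and quantile normalised. Background correction is not given in the sources used here, and no filter on signal quality could be repeated from the table, so every probe was tested. Signal over background per probe is therefore unknown, and the number of arrays limits the precision.

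Intensities were turned to log2 and 33012 probes were fitted in R 4.3.3 by linear models with moderated variances (limma 3.58.1, two-sided, Benjamini-Hochberg adjustment), in the only comparison of the series, with 3 samples per group. The robust prior used statmod 1.5.0. The platform annotation gave 1 gene symbol for 14411 probes. Genes with several probes were read at the probe with the highest mean log2 intensity. Of these probes 14402 were found in RefSeq by gene identifier, with 0 symbols changed. A probe was above the array median where its mean log2 intensity exceeded the median over all probes. The members, gene lists and motifs were chosen with earlier results of these data known. Named were every member, the 2 genes of lowest p in each list, the 3 genes most like Serpinb2 and Plau, and those said to be singled out. The fit was tested on simulated data with changed probes. Alternatives were the intensity trend, a robust prior, the methods' t-test, an offset of 50, cyclic loess, a filter on dim probes, probe averaging, the replicate number as a block, and fits without each sample in turn. Samples treated with latex beads, β-haematin or HNE were not analysed here.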

Additional observations from a re-analysis of the deposited data

How the results depend on the processing

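Plau, Serpinb2, Procr and Thbd kept a positive log2 fold change and Plat a negative one under every alternative that gave a value. The sign of Tfpi turned to -0.56 without LPS replicate 2 and to -0.35 without 15-HETE + LPS replicate 3, and that of F3 to 0.022 without 15-HETE + LPS replicate 2, each with the intensity trend or without it. With 1 sample left out Tfpi ran from -0.56 to 0.62 and F3 from -1.11 to 0.022. Plat, F3 and Tfpi gave no value when dim probes were left out. F3, Thbd and Tfpi gave none under the rule of 1.8-fold in 2 of 3 treated samples.

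Of the 7 members 1 was higher in the fit as reported, where 314 probes and 2 pathway genes were called. Members lower were 0 throughout. With the intensity trend the counts were 4 members higher, 2917 probes and 7 pathway genes, and with probes above the array median 4, 2796 and 5, a filter that Plau passed through its treated samples alone. With an offset of 50 they were 3 members and 525 probes, with cyclic loess 2 and 316, and with a robust prior 1 and 162. Averaging the probes per gene gave 3 members and 589 of 13840 genes. The methods' t-test adjusted over all probes called 0 members, 0 probes and 0 pathway genes, and on the probes past the 1.8-fold rule, at an adjusted p of at most 0.025, it called 88 probes, 1 member (Serpinb2) and 0 pathway genes. With the limma prior as reported, leaving out any 1 sample gave 0 probes, 0 members and 0 pathway genes, and with the trend 1223 to 5135 probes, 3 to 4 members and 3 to 15 pathway genes. The cause of these differences was not tested. The highest of these counts were those without LPS replicate 1.

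The replicate number as a block gave 0 probes, 0 members higher and 0 pathway genes, with a limma adjusted p of 0.207 for Plau and Serpinb2 and 0.210 for Procr. With the intensity trend, an alternative chosen after seeing the data, the block gave 2324 probes, 3 members and 7 pathway genes. Over all probes the deviations of samples that share a number correlated at -0.024, 0.0035 and 0.0237. Those of samples with unlike numbers correlated at -0.0538 to 0.0464, so the numbers give no sign of pairing over the array as a whole. Tfpi had the same order of replicates in both groups, and its SE was 0.70 in the fit as reported and 0.24 with the block.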
